A study of Mus musculus with 3 samples.

Results

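The type I interferon response genes described here are 38 genes taken as a list of symbols, of 32285 genes in the count matrices. The rule for the list uses no measured value, but the list was drawn up with earlier results of these data known. Each of the 38 had at least 1 UMI in each library. A UMI (unique molecular identifier) stands for 1 captured RNA molecule. The genes were followed in 7 classes of immune cells set by gates on a few marker genes, over cell barcodes with at least 1500 UMIs: CD8 T cells, NK cells, Ly6c2 and Chil3 positive monocytes, Arg1-high macrophages, neutrophils, plasmacytoid dendritic cells (pDC) and Cd209a positive conventional dendritic cells (cDC2).

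The cells were CD45+ immune cells from tumours of the mouse melanoma line B16F10, grown in C57BL/6 mice. All mice were given Pmel-1 cytotoxic T lymphocytes (CTL) 9 days after the tumour cells; Pmel-1 CD8 T cells carry a transgenic receptor against gp100, a protein of pigment cells. Tumours were collected 3, 7 and 14 days after this transfer, and cells of 3 mice were pooled in equal numbers into 1 library per day. Mice without transfer were not analysed here. With 1 library per day, a difference between days has no replicate check, and time since transfer, age of the tumour and library cannot be told apart. The intervals given with levels and ratios are 95% intervals for counting error only.

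Type I interferons are secreted when a cell senses foreign or misplaced nucleic acid. They bind the receptor formed by Ifnar1 and Ifnar2, which acts through the kinases Jak1 and Tyk2 to activate transcription factors, among them Stat2 and Irf9. These bind interferon-stimulated response elements in gene promoters and raise the RNA of a broad set of antiviral genes, among them the 38 followed here. In tumours, the response in dendritic cells is known for its part in the priming of CD8 T cells, and interferon-gamma from T and NK cells induces a partly overlapping set of genes.

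The promoters were read for this response element. Of the 38 genes, 31 had a promoter in the RefSeq table, a window of 300 bases from 250 before to 50 after the start. A core of the response element was searched as GAAANNGAAA on both strands, with overlapping matches counted. It was found in 19 of the 31 promoters (61.3%), against 1079 of 27025 genes in that table (3.99%). TTCNNNGAA, the core of the interferon-gamma activated site, was found in 5 of the 31 (16.1%) against 9.55% of genes. The 200 bases before the start are printed for 5 genes that carry results below, with each GAAANNGAAA match, on either strand, in capitals. The windows, on GRCm38.p6, are chr4:156200819-156201018 (minus strand) for Isg15, chr12:26456453-26456652 (minus) for Rsad2, chr19:34583329-34583528 (plus) for Ifit3, chr19:34607757-34607956 (plus) for Ifit3b and chr8:71537473-71537672 (minus) for Bst2.
Isg15: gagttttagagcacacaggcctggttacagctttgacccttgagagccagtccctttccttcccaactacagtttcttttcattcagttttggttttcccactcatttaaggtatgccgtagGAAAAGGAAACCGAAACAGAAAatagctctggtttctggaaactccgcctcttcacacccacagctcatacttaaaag
Rsad2: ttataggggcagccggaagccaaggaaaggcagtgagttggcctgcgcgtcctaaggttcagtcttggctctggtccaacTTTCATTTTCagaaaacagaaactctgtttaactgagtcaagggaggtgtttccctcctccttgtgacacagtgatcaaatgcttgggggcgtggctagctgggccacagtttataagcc
Ifit3: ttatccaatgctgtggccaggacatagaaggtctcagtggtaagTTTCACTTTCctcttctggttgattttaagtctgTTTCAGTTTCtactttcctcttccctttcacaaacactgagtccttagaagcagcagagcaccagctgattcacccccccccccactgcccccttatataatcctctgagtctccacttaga
Ifit3b: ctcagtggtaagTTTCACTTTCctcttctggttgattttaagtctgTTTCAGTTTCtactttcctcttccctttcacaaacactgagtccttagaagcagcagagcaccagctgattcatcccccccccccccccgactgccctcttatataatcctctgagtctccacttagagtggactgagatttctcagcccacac
Bst2: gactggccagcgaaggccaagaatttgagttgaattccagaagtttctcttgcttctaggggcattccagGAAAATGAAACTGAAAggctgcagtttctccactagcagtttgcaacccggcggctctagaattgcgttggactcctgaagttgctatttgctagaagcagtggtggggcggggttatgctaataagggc
Isg15 carried 3 matches in 1 overlapping run, with the first bases 78 to 66 bases before the start. Ifit3 and Ifit3b carried the same pair of matches, and 258 of 260 aligned bases of their promoters (99.2%) were identical. Rsad2 carried 1 match and Bst2 carried 2. A match is a description of the letters and not evidence of binding, and no match in this window says nothing of elements elsewhere.

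Several members lie side by side in the genome (GENCODE M21 on GRCm38). Ifit2, Ifit3, Ifit1bl1, Ifit3b and Ifit1 lie on chromosome 19 between 34550694 and 34650009. Oas2, Oas3, Oas1g and Oas1a lie on chromosome 5 between 120730333 and 120907521, and Oasl2 and Oasl1 on the same chromosome between 114896936 and 114937915. The PYHIN genes Ifi213, Ifi209, Ifi204 and Ifi203 lie on chromosome 1 between 173566283 and 173942672. Rsad2 and Cmpk2 are neighbours on chromosome 12, between 26442746 and 26479837. Some copies are alike near the 3′ end, where this kit captures RNA. Of the 50-base words in the last 500 bases of the transcript, 56.1% of those of Oas1a occurred in Oas1g, 30.2% of those of Oas1g in Oas1a, 30.2% of those of Phf11b in Phf11d and 14.9% of those of Ifit3 in Ifit3b. The division of UMIs within these pairs is therefore uncertain.

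The 3 libraries held 3656, 3038 and 3549 barcodes, of which 2775, 2600 and 2902 had at least 1500 UMIs, with 32413725, 29195648 and 35257704 UMIs in all. Of these, 42.6%, 37.6% and 43.5% passed no gate, and 68, 53 and 99 passed more than 1, most often the monocyte and macrophage gates together (31, 27 and 68 cells). At days 3, 7 and 14 the gates held 443, 517 and 458 CD8 T cells, 208, 401 and 158 NK cells, 607, 398 and 375 monocytes, 198, 185 and 486 macrophages, 85, 76 and 137 neutrophils, 39, 10 and 35 pDC and 87, 91 and 95 cDC2. Marker lists for each class were read beside the gates, and each list was highest in its own class in each library. The summed CPM (UMIs scaled by the total UMIs of the class) of 6 neutrophil markers, for example, was 8506, 8713 and 11811 in neutrophils and at most 129 in the other classes. Macrophages were set apart less sharply: their 8 markers summed to 7890, 4653 and 9578 CPM in macrophages, but also to 2191, 2201 and 3834 CPM in monocytes. The neutrophil gate held shallow cells, with medians of 2397, 2605 and 2422 UMIs, against 10302, 10583.5 and 11507 in monocytes. Erythroid genes, which immune cells lack, summed to 1290 CPM in macrophages at day 3 and to at most 0.423 CPM in macrophages at the later days.

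A barcode found in more than 1 library can carry RNA of the other library. Such barcodes numbered 138, 180 and 87 among those kept, with medians of 39214.5, 31435 and 40209 UMIs, and in 103, 155 and 61 of them the copy elsewhere had fewer than 1500 UMIs. They were most frequent among CD8 T cells, with 80, 87 and 39 cells. Levels are therefore also given for cells that passed exactly 1 gate and for cells without a shared barcode where the value moves. Free RNA can be a further source of UMIs in cells that do not make them, and its level was not measured. Barcodes under 1500 UMIs, which can also be shallow cells, held the 38 genes at 1934, 1905 and 1276 CPM.

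Monocytes, neutrophils, macrophages and cDC2 carried more RNA of the list than lymphocytes in each library. The sum was higher in pDC too, but there Bst2 alone made up 60.6% of it, so the excess rests largely on 1 gene. Summed over the 38 genes, monocytes held 6758, 6119 and 3576 CPM at days 3, 7 and 14, and neutrophils 6155, 5560 and 3556. Macrophages held 3660, 4589 and 2444 CPM, cDC2 4739, 3584 and 1924, and pDC 3556, 3107 and 3252. CD8 T cells held 1215, 1164 and 940 CPM and NK cells 1571, 1269 and 912. The order of monocytes and neutrophils is not fixed at day 7: among cells in exactly 1 gate neutrophils held 7073, 6750 and 3541 CPM and monocytes 7406, 6403 and 3903.

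**Figure D1:**
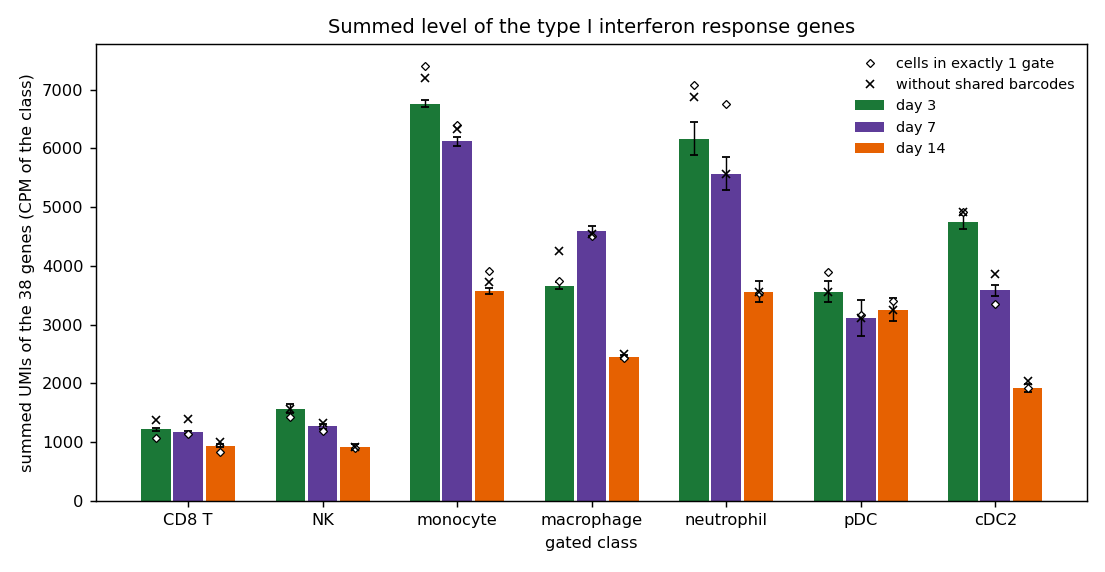
Summed CPM of the 38 type I interferon response genes (y axis) in each gated class (x axis) at days 3, 7 and 14, with 1 library per bar and bars from 0. Error bars are exact Poisson 95% intervals for counting error only, diamonds show cells in exactly 1 gate and crosses cells without a shared barcode; monocytes at day 3 reach 6758 CPM and CD8 T cells at day 14 hold 940 CPM.

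The members with the most UMIs differed between some classes and were shared by others. The gene with the most UMIs of the list was Sp100, a protein of nuclear bodies, in CD8 T cells (14.6% of their UMIs of the list) and NK cells (18.3%). It was Ifi204, a nucleic acid binding PYHIN protein, in monocytes (11.3%), Rsad2, the antiviral enzyme viperin, in macrophages (10.6%), and Isg15, a ubiquitin-like modifier, in neutrophils (18.1%). In macrophages Isg15 was nearly level with Rsad2 at 10.5%, and ahead of it by mean CPM over the libraries (384 and 377). Ifi203 led in cDC2 with 9.77%. In pDC a single gene, Bst2, made up 60.6% of the UMIs of the list. By mean CPM over the 3 libraries, 17 members were highest in neutrophils, 17 in monocytes, 3 in pDC and 1 in cDC2. These shares count molecules at the 3′ end and are not scaled by gene length.

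**Figure D2:**
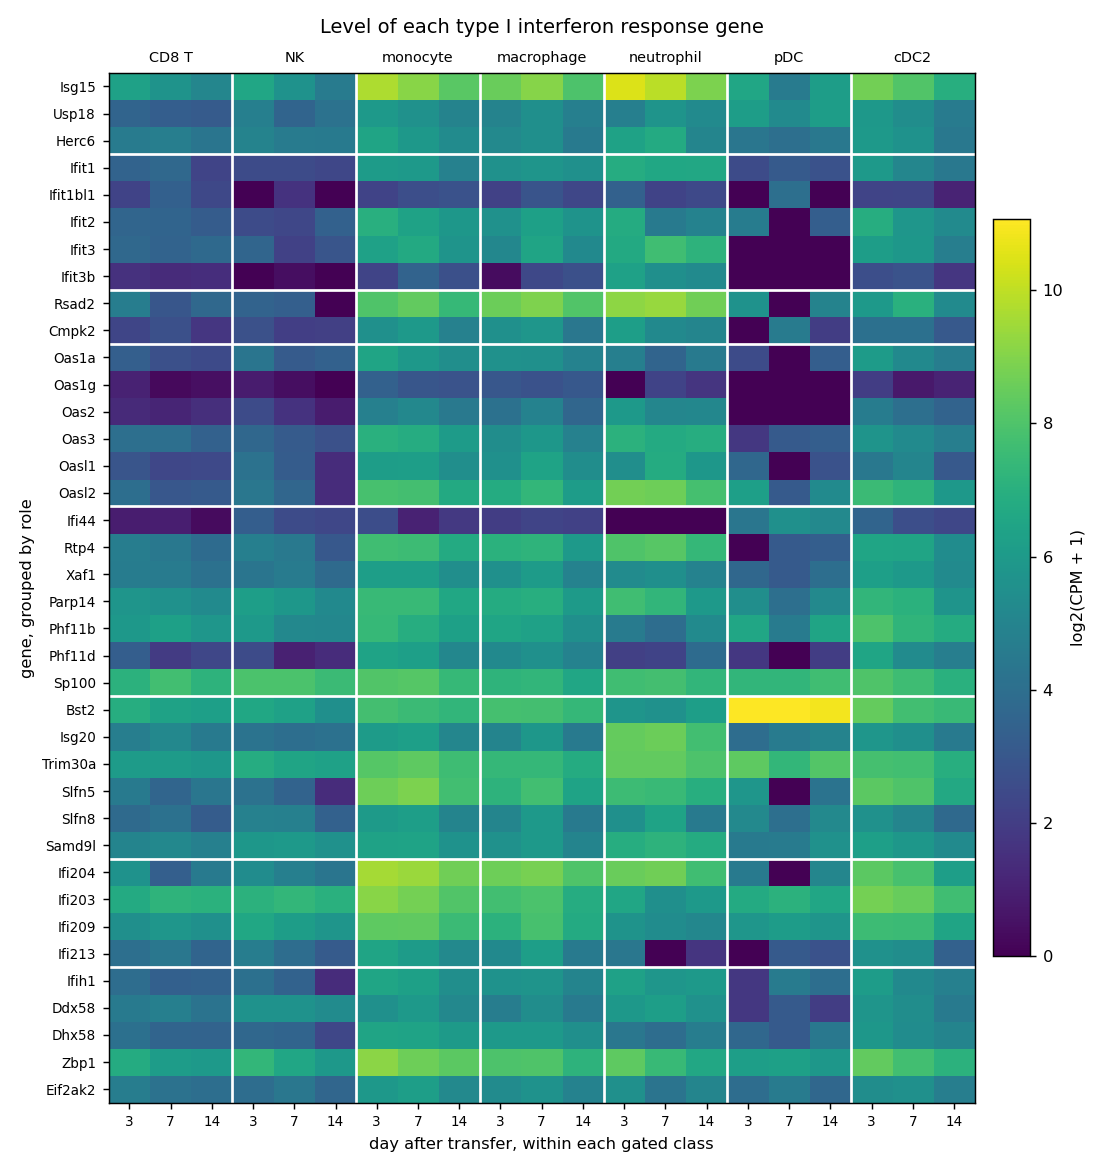
Level of each of the 38 genes (rows, grouped by role, with white lines between roles) in each class and at each day after transfer (columns), as log2(CPM + 1) on the colour scale. Isg15 stands out in monocytes and neutrophils, Bst2 in pDC and Sp100 across the classes; the pDC column of day 7 rests on 10 cells.

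Classes were compared with edgeR's quasi-likelihood test on UMIs summed per class and library, from cells in exactly 1 gate, with the library as a block and Benjamini-Hochberg adjustment over 10005 genes. Of the 38 genes 37 were tested, and Ifit1bl1 was too low. The 3 libraries serve as replicates of a difference between classes, so the spread includes the days, and each is 1 pool of mice. Monocytes set against CD8 T cells gave the widest difference: 37 of 37 members passed the test as higher in monocytes and 0 as lower, where 35% of all genes tested were higher and 35.5% lower. The median log2 difference of the members was 2.86, against -0.04 over all genes tested. It was largest for Ifi204, at 675 CPM in monocytes and 15.4 in CD8 T cells (log2 difference 5.70 ± 0.36 SE, adjusted p = 8.5e-12 by edgeR). It was smallest for Sp100, at 254 and 162 CPM (0.79 ± 0.20 SE, adjusted p = 0.0011 by edgeR).

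Levels of the members in the lymphocyte gates were read beside those of 6 monocyte markers in the same gates. The 6 monocyte markers, among them Lyz2, summed in CD8 T cells to 8.82%, 4.20% and 6.91% of their level in monocytes. This sum is not particular to monocytes: pDC at day 3 held 4571 CPM of it, from 3 of the 6 markers. The median CD8 T cell held 644, 589 and 328 CPM of it. The share of the markers is thus a mark to read by and not a measure of monocyte RNA, whose part here was not tested. For 30 of the 38 members the same share was above that of the markers on each of the 3 days. Sp100 lay far above it, at 51.3%, 73.5% and 85.4% of its level in monocytes, as did Isg20, an exonuclease that degrades RNA, at 38.8%, 46.6% and 69.1%. Ifi204 was the 1 member below the markers' share on each day, with 6.37%, 1.37% and 5.48%, and Slfn5 was below it on days 3 and 7, with 5.57% and 2.41%. In NK cells 21 members were above the markers' share on each day and 6 were at or below it on each day. The sensor Ddx58 was present in NK cells at 106%, 81.8% and 113% of its level in monocytes.

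Monocytes and macrophages differed in the same direction for most members, by smaller amounts. Of 37 members, 19 were higher in monocytes and 1 was lower, where 11.8% of all genes were higher and 12.3% lower. The median log2 difference was 0.64, against -0.02 over all genes. Oas3, which makes the oligoadenylates that switch on RNase L, led with 114 CPM in monocytes and 40.4 in macrophages (log2 difference 1.42 ± 0.19 SE, adjusted p = 9.8e-06 by edgeR). Slfn5, of the Schlafen family, followed with 401 and 146 CPM (1.37 ± 0.25 SE), then Ifi203 with 457 and 192 CPM (1.18 ± 0.24 SE) and Zbp1, a sensor of Z-form nucleic acid, with 449 and 200 CPM (1.07 ± 0.16 SE). Rsad2 went the other way, with 261 CPM in monocytes and 402 in macrophages (-0.74 ± 0.25 SE, adjusted p = 0.036 by edgeR), and was lower in monocytes in 3 of 3 libraries. The count of 19 fell to 8 without the day 3 library and to 8 without the day 14 library, and was 6 without the library as a block, 12 by DESeq2 and 9 with cells counted in each gate they pass. Under each of these settings the call of Rsad2 was lost. The shares of all genes under these settings are not given, so the counts have no background beside them.

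Neutrophils and monocytes, close in their sums, differed in which genes made them up. Of 37 members, 12 were higher in neutrophils and 12 lower, where 14.3% of all genes were higher and 34.7% lower. Members lower were thus about as frequent as over all genes, and members higher more frequent. The median log2 difference of the members was 0.13, against -0.90 over all genes tested. Among the higher, Isg20 had 397 CPM in neutrophils and 62.4 in monocytes (log2 difference 2.82 ± 0.26 SE, adjusted p = 1.1e-08 by edgeR). Ifit3b had 71.7 and 7.01 CPM (3.55 ± 0.54 SE), and its near copy Ifit3 177 and 84.5 CPM (1.25 ± 0.36 SE); both proteins belong to the IFIT family, which binds foreign RNA. Rsad2 had 691 and 261 CPM (1.59 ± 0.27 SE) and Isg15 1171 and 600 CPM (1.11 ± 0.24 SE). The PYHIN genes were lower in 4 of 4, with 20.1 CPM for Ifi203, 18.4 for Ifi209 and 8.61 for Ifi213 in neutrophils, against 457, 303 and 68.7 in monocytes. Ifi204 differed less, with 321 and 675 CPM (-0.95 ± 0.33 SE, adjusted p = 0.020 by edgeR). Bst2, or tetherin, which holds budding virus at the membrane, had 29.4 and 181 CPM (-2.33 ± 0.28 SE, adjusted p = 4.9e-07 by edgeR). Phf11d had no UMI in neutrophils of exactly 1 gate and 70.6 CPM in monocytes. With at least 3000 UMIs per cell, 4 members were higher in neutrophils and 14 of the 24 calls remained. Trim30a, called higher at 367 and 287 CPM (0.52 ± 0.19 SE), then had a log2 difference of -0.49. Few neutrophils are that deep: 25, 28 and 37 at days 3, 7 and 14, before cells in several gates are left out. Without the library as a block 7 were higher. For these settings too the shares of all genes are not given.

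In pDC, known as producers of type I interferon, most members were lower than in cDC2. Of 37 members, 2 were higher in pDC and 23 lower, where 12.6% of all genes were higher and 18.9% lower. Bst2 had 2193 CPM in pDC and 230 in cDC2 (log2 difference 2.97 ± 0.18 SE, adjusted p = 7.7e-11 by edgeR). Bst2 is also a known surface marker of mouse pDC. Ifi44 had 39.7 and 6.43 CPM (2.19 ± 0.68 SE, adjusted p = 0.018 by edgeR), and this call was lost in 1 of the 3 fits that leave out a library, that without day 14. Among the lower, Rtp4 had 2.95 and 71.2 CPM (-5.95 ± 0.57 SE), Isg15 70.8 and 258 CPM (-1.93 ± 0.32 SE), and Ifit3 and Oas2 had no UMI in pDC of exactly 1 gate. Usp18, which strips Isg15 from proteins and blocks the receptor, had 63.8 and 40.8 CPM, and Trim30a 263 and 186 CPM; neither passed the test.

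CD8 T and NK cells differed in fewer members. Of 37, 2 were higher in CD8 T cells and 7 lower, where 19% of all genes were higher and 17.2% lower, so members higher were fewer than over all genes and members lower about as frequent. The higher were Isg20, at 26.9 CPM in CD8 T and 15.3 in NK cells (log2 difference 0.93 ± 0.32 SE, adjusted p = 0.028 by edgeR), and Rsad2, at 9.74 and 3.52 CPM (1.45 ± 0.51 SE, adjusted p = 0.031 by edgeR). The lower included the RNA sensor Ddx58, at 21.2 and 46.7 CPM (-1.10 ± 0.19 SE, adjusted p = 0.00014 by edgeR), Oas1a, at 4.68 and 10.5 CPM, Samd9l, at 30.5 and 56.7 CPM, and Ifi44, at 0.550 and 6.08 CPM. The median log2 difference of the members was 0.13, of the opposite sign to the balance of calls. Members higher numbered 10 without the filter on low counts and 5 without shared barcodes. Without the library as a block 0 members were higher and 3 lower, and leaving out 1 library gave 1 to 4 higher (4 without day 3, 1 without day 7) and 4 to 6 lower (4 without day 3 or without day 14). No share of all genes is given for these settings.

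Between days, a member was counted as higher or lower where its CPM differed by 1.5-fold or more and the interval of the ratio left out 1, among members with at least 20 UMIs over both libraries. This is a rule of size over 1 library per day, not a test of change.

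Between days 7 and 14 most measured members were lower by this rule in monocytes, macrophages and cDC2, and fewer were in neutrophils. In monocytes the summed level was lower by 1.71-fold (1.68 to 1.74), and 30 of 37 measured members were lower and 0 higher, where 4.8% of all measured genes were lower and 5.13% higher. In macrophages it was lower by 1.88-fold (1.83 to 1.92), with 30 of 38 members lower and 0 higher, against 6.7% and 5.91% of genes. In cDC2 it was lower by 1.86-fold (1.78 to 1.95), with 26 of 34 lower and 0 higher, against 5.68% and 5.52%. Neutrophils were lower by 1.56-fold (1.46 to 1.68), with 11 of 29 lower and 0 higher, against 11% and 8.04%, and 7 of the 29 had a ratio above 0. The median log2 ratio of the measured members was -0.80 in monocytes, -0.89 in macrophages, -0.84 in cDC2 and -0.53 in neutrophils, where that of all measured genes was 0.00, 0.02, 0.01 and -0.01. With a fold of at least 2, the members lower were 8 in monocytes, 14 in macrophages, 14 in cDC2 and 4 in neutrophils. The share of all genes at this fold is not given, so these counts have no background beside them.

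The difference between days 7 and 14 reached each role of the list in monocytes, from 1.5024-fold for Herc6 to 2.35-fold for Isg20 (1.94 to 2.85) among the 30 members lower. In the group of the ubiquitin-like modifier, Isg15, Usp18 and the ligase Herc6 were lower, 3 of 3, with Isg15 at 829.7, 548 and 303 CPM at days 3, 7 and 14. Of the 5 IFIT genes 3 were lower, among them Ifit1 with 66.4, 63.3 and 28.5 CPM. Rsad2 stood at 261, 339 and 170 CPM and Cmpk2, a kinase of pyrimidine nucleotides, at 45.6, 62.4 and 28.3 CPM. Of the 6 OAS genes 4 were lower, among them Oasl2 with 226, 218 and 105 CPM. The PYHIN genes were lower in 4 of 4, with Ifi204 at 767, 673 and 407 CPM and Ifi209 at 317, 326 and 183 CPM. Of the 5 nucleic acid sensors 3 were lower: Ifih1, the sensor of long RNA, with 88.8, 77.6 and 43.9 CPM, Ddx58 with 46.1, 60.2 and 34.7 CPM, and Eif2ak2, the kinase that stops translation on double-stranded RNA, with 58.0, 71.96 and 35.9 CPM. Zbp1, at 555, 392 and 305 CPM, was not past 1.5-fold in this step. Of the 6 other restriction factors 5 were lower, with Slfn5 at 395, 468 and 210 CPM, and Bst2, at 215, 184 and 153 CPM, was the exception. The 6 measured genes of the remaining group were lower in 6 of 6, among them Parp14 with 176, 172 and 94.5 CPM and Rtp4 with 203, 188 and 108 CPM. Oas1a, Oas1g, Ifit2, Dhx58, Ifit1bl1, Bst2 and Zbp1 were the 7 not past the rule, and Ifi44 had too few UMIs. In the days 7 to 14 step, 15 of the 19 measured members with a GAAANNGAAA match were lower in monocytes, with a median log2 ratio of -0.82, and 10 of the 11 without one, with a median of -0.81.

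In macrophages members of each role were lower between days 7 and 14, from 1.55-fold for Oas1a to 3.25-fold for Ifi213 (2.61 to 4.05), after values at day 7 that were mostly above those of day 3. Ifit3 stood at 33.6, 88.4 and 36.9 CPM, the PYHIN gene Ifi213 at 37.5, 71.9 and 22.1 CPM, Slfn8 at 31.9, 61.3 and 21.7 CPM, and Isg20 at 30.8, 56.7 and 22.6 CPM. For these 4 the day 7 value is the highest of the 3. Isg15 followed the same order, with 374, 528 and 249 CPM, and Rsad2 with 382, 488 and 262 CPM, but neither was past 1.5-fold between days 3 and 7. At that first step the sum in macrophages was higher by 1.25-fold (1.22 to 1.29), and 9 of 37 members were higher and 0 lower, where 5.34% of all genes were higher and 14.2% lower. Without shared barcodes, of which macrophages held 20, 9 and 10, the log2 ratio of the sum was 0.09 in place of 0.33. There 5 of 36 members were higher, Ifit3 among them, against 5.08% of genes. Cells in exactly 1 gate gave a log2 ratio of 0.27 and 9 of 35 members higher, against 5.56% of genes.

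Monocytes, neutrophils and cDC2 had lower sums at day 7 than at day 3, as counted. In monocytes the sum was lower by 1.10-fold between days 3 and 7 (1.09 to 1.12), with 4 of 38 members lower and 1 higher, where 7.55% of all genes were lower and 5.64% higher, so few members passed the rule. Among cells in exactly 1 gate 7 of 38 were lower, against 5.98% of genes, and without shared barcodes 5 of 38, against 6.83%. The 4 as counted were Ifi44, Ifit2, Isg15 and Herc6, and the 1 higher was Ifit3b, at 3.83 and 10.7 CPM, or 28 and 49 UMIs. In cDC2 the sum was lower by 1.32-fold (1.27 to 1.37), with 9 of 35 lower and 1 higher, against 3.25% and 4.26% of genes. There Bst2 stood at 345, 209 and 181 CPM at days 3, 7 and 14, Ifit2 at 117, 54.8 and 38.5 CPM and Phf11b at 252, 151 and 109.7 CPM. Rsad2, at 60.9, 129 and 38.5 CPM, was the 1 higher at day 7, with a log2 ratio of 1.08, or 0.55 among cells in exactly 1 gate. Among the members in cDC2, the ratios at the second step were widest for Ifi213, with 47.0, 42.1 and 9.92 CPM over the 3 days, and Oasl1, with 20.8, 31.4 and 7.58 CPM, and Ifi204 stood at 309.9, 231 and 73.5 CPM. In neutrophils the summed log2 ratio was -0.15, with 3 of 29 members lower and 2 higher, against 12.4% and 9.93% of genes, and its direction flipped to 0.24 with at least 3000 UMIs per cell and to 0.06 with TMM scaling. The value at 3000 UMIs rests on 25 neutrophils at day 3 and 28 at day 7. Isg15 stood at 1406, 969 and 473 CPM in neutrophils, Rsad2 at 582, 649.6 and 403 CPM and Isg20 at 344, 382 and 212 CPM. Isg15 was thus lower at each later day, and the other two were lowest at day 14.

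pDC held 10 cells at day 7, so days 3 and 14 were compared. The sum was lower by 1.09-fold at day 14 (1.01 to 1.18), and 1 of 17 measured members was lower and 0 higher, where 4.85% of all genes were lower and 3.21% higher. Bst2 stood at 2138, 2138 and 1896 CPM. The 1 member lower was Slfn5, with 23, 0 and 6 UMIs.

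**Figure D3:**
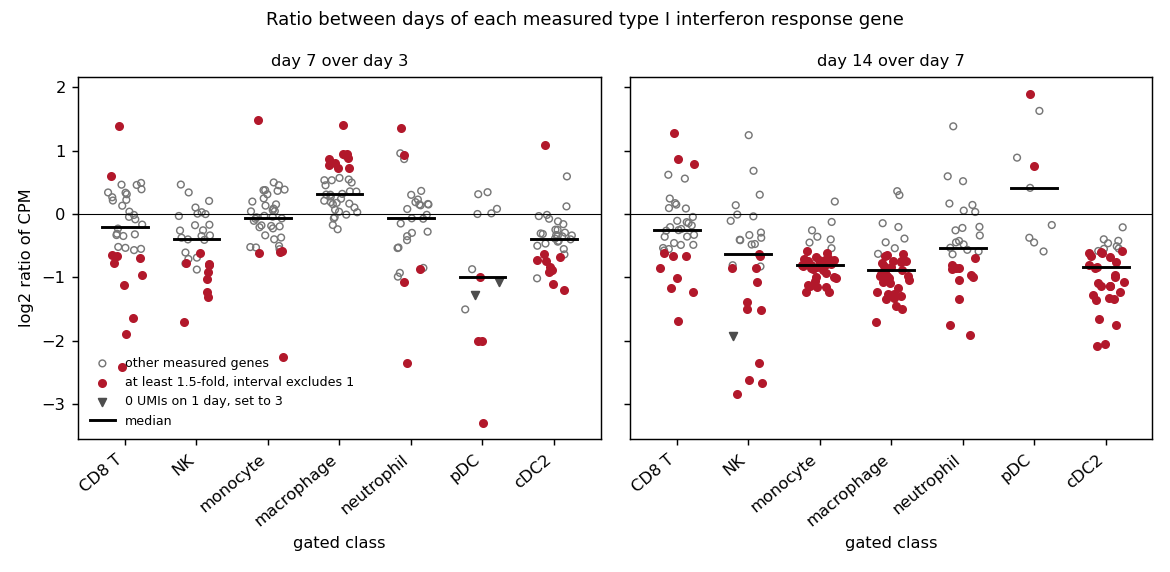
Log2 ratio of CPM between days (y axis) for each measured member in each class (x axis), day 7 over day 3 on the left and day 14 over day 7 on the right. Filled circles are members past the size rule, open circles the other measured members, triangles members with 0 UMIs on 1 day set to the floor of 3, and bars the medians; 30 of 37 members in monocytes and 30 of 38 in macrophages lie below the rule's limit on the right.

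NK cells held less RNA of the list at each later day. From day 3 to day 7 the sum was 1.24-fold lower (1.17 to 1.31), and from day 7 to day 14 a further 1.39-fold (1.30 to 1.49). At the first step 9 of 31 measured members were lower and 0 higher, where 5.1% of all genes were lower and 3.27% higher. At the second 13 of 29 were lower and 0 higher, against 5.48% and 3.5%. Isg15 stood at 93.3, 49.6 and 23.6 CPM, Zbp1 at 160, 93.3 and 58.7 CPM and Bst2 at 96.5, 80.6 and 44.8 CPM, each in falling order of day. Rsad2 had 13, 27 and 0 UMIs, and with 0 UMIs set to 3 was 3.80-fold lower at day 14 than at day 7. This value is set by the floor of 3 and is not a bound. Many of these ratios rest on few UMIs: with at least 100 UMIs required, 4 members were lower at the first step and 4 at the second. The share of all genes at that minimum is not given. Among cells in exactly 1 gate 7 of 27 were lower at the second step and 1 was higher, against 5.23% and 3.22% of genes.

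In CD8 T cells the summed level hardly differed between days 3 and 7, and the direction was not fixed. The log2 ratio was -0.06 (-0.10 to -0.02), against 0.07 among cells in exactly 1 gate, 0.01 without shared barcodes, 0.03 with TMM scaling and 0.03 outside mitochondrial, ribosomal and gate genes. At this step 9 of 36 members were lower and 2 higher, where 12% of all genes were lower and 6% higher. Among cells in exactly 1 gate 5 of 35 were lower and 3 higher, against 10.2% and 5.83% of genes. Sp100 was higher at day 7, with 136, 207 and 143 CPM at days 3, 7 and 14, as was Ifit1bl1, with 34, 88 and 35 UMIs. Oasl2 was lower, with 15.2, 7.01 and 7.77 CPM. Between days 7 and 14 the sum was lower by 1.24-fold (1.20 to 1.28), with 8 of 36 members lower and 3 higher, against 3.99% and 5.87% of genes. Without shared barcodes 13 of 36 members were lower and 1 higher, against 4.88% and 7.20% of genes. Ifit1 was lower by 3.21-fold (2.14 to 4.94), from 112 to 31 UMIs, and Isg15 stood at 78.8, 50.5 and 33.0 CPM over the 3 days.

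The 3 members higher in CD8 T cells at day 14 than at day 7 were Ifi204, Rsad2 and Slfn5, which were lower at that step in monocytes, macrophages and cDC2. Ifi204 stood at 48.8, 9.20 and 22.3 CPM in CD8 T cells, Rsad2 at 25.1, 6.79 and 12.3 CPM and Slfn5 at 21.99, 11.3 and 19.5 CPM. The 6 monocyte markers in the same cells followed the same order of days, with 1574, 878 and 1150 CPM; the part of monocyte RNA in these 3 genes was not tested. Among cells in exactly 1 gate this step had log2 ratios of 0.96 for Ifi204, 0.40 for Rsad2 and -0.03 for Slfn5, and the first alone passed the size rule.

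Whether few cells or all carried the response was read from cells thinned at random to 1500 UMIs each, so that depth is equal. In monocytes 99.01% of cells at day 3 held at least 1 UMI of the list (97.9 to 99.6, exact Clopper-Pearson), 97.5% at day 7 and 91.2% at day 14. Before thinning the share was 100% on each day. Thinned macrophages gave 92.9%, 88.6% and 77.4%, neutrophils 94.1%, 90.8% and 84.7%, and cDC2 90.8%, 96.7% and 81.1%. CD8 T cells gave 72.9%, 77.6% and 69.7% (98.2%, 99.6% and 98.3% before thinning), and NK cells 80.3%, 76.6% and 74.1% (98.6%, 99.3% and 98.1%). As a mean over the 3 libraries this is 95.9% ± 4.14 (SD, n = 3) in monocytes and 73.4% ± 3.98 (SD, n = 3) in CD8 T cells. In pDC the share was 94.9%, 100% and 100%, with a mean of 98.3% ± 2.96 (SD, n = 3), and the mean was 77.3% without Bst2.

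The RNA of the list was spread unevenly over the cells of most classes. If each cell gave the same share of its UMIs to the list, 98.2% of macrophages at day 14 would have held at least 1 UMI, against 77.4% measured, and 99.7% of monocytes at that day, against 91.2%. The variance over the mean of UMIs per thinned cell, close to 1 for an equal share, was 14.1 in neutrophils, 10.8 in macrophages, 7.57 in monocytes, 5.13 in cDC2, 3.08 in CD8 T cells, 2.32 in NK cells and 1.61 in pDC, each a mean over the 3 libraries. This value also rises with the mean count at the same relative spread, so it does not rank the classes by unevenness. Mean counts per thinned cell were 11.0, 9.61 and 5.77 in monocytes and 2.16, 2.08 and 1.81 in CD8 T cells. In pDC the variance over the mean was 2.59, 0.532 and 1.72 at days 3, 7 and 14, with 10 cells at day 7. Among cells in exactly 1 gate it was 3.49, 1.10 and 2.06 in pDC and 2.19, 1.74 and 2.41 in NK cells. The pDC mean also depends on Bst2, with 60.6% of their UMIs of the list. Without Bst2 that mean was above the 2.32 of NK cells. The 10% of pDC with the most held 20.8% of the UMIs of the list on average. The 10% of cells with the most held 23.7%, 31.4% and 38.5% of the UMIs of the list in monocytes at days 3, 7 and 14, 32.3%, 43.5% and 49.1% in macrophages, and 35.9%, 37.9% and 51.5% in neutrophils. In these 3 classes the share held by the top 10% was highest at day 14 and lowest at day 3. As a mean over the 3 libraries this share was 41.7% in neutrophils, 41.6% in macrophages and 31.2% in monocytes. In CD8 T cells it was 37.3%, in NK cells 34.7% and in cDC2 33.1%. Low counts per cell raise this share by themselves. Members were also placed alternately into a pair of lists, and the summed levels of these lists went together over cells: Pearson's r over cells was 0.59, 0.73 and 0.79 in monocytes, 0.64, 0.84 and 0.80 in macrophages and 0.65, 0.67 and 0.83 in neutrophils, a description over cells that share a library. In NK cells it was 0.50, 0.24 and 0.38.

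The lower level of monocytes at day 14 reached cells at the bottom and the top of the range. At days 3, 7 and 14 the cell at the 10th percentile held 2765, 1874 and 836 CPM of the list, the median cell 6550, 4660 and 2613 CPM and the cell at the 90th percentile 13184, 12646 and 7971 CPM. In macrophages the same percentiles were 796, 692 and 358 CPM, 3162, 2902 and 1254 CPM, and 8055, 10539 and 5453 CPM. At day 7 the macrophage sum was above that of day 3 while the median cell was not, and the 90th percentile was. Single cells weighed in the small classes: at day 14, 1 barcode with 235 UMIs of the list among 43640 UMIs held 14.9% of the neutrophil UMIs of the list and passed the cDC2 gate too.

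**Figure D4:**
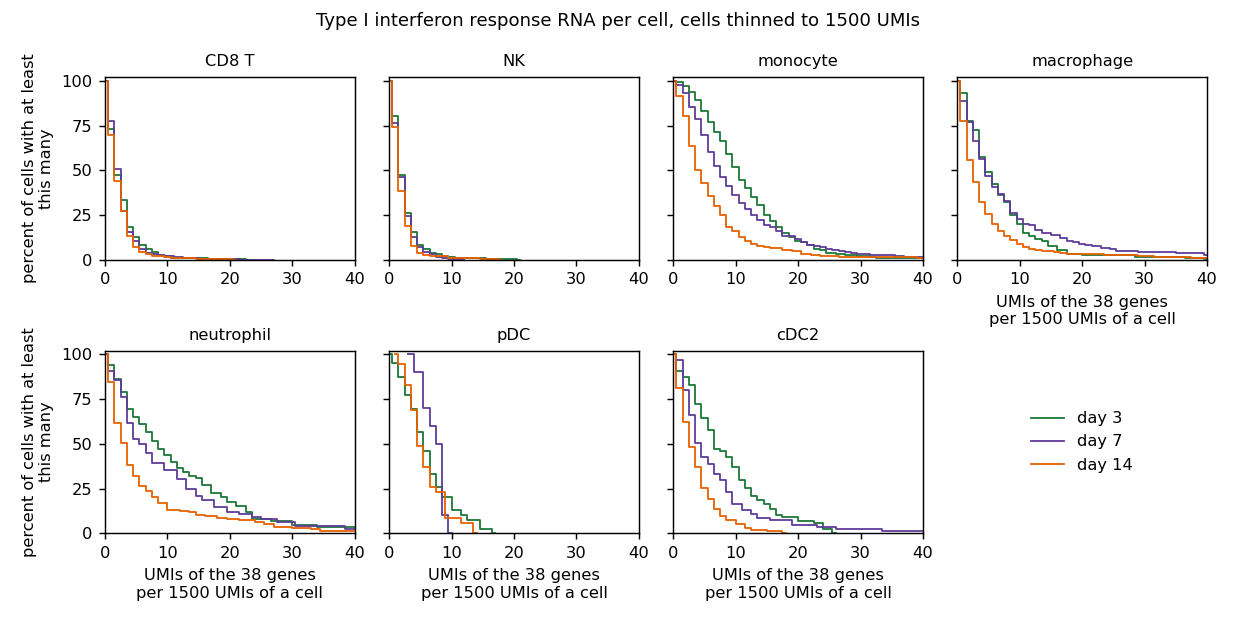
Percent of cells (y axis) that held at least a given number of UMIs of the 38 genes (x axis, to 40) after each cell was thinned to 1500 UMIs, per class, with 1 line per day. In monocytes, macrophages and neutrophils the day 14 line lies to the left of the day 3 line at low numbers, and no CD8 T cell exceeds 26 UMIs and no NK cell 20; the day 7 line of pDC rests on 10 cells.

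The top cells of the lymphocyte gates also carried myeloid RNA. The 10% of CD8 T cells with the most UMIs of the list held Lyz2, the lysozyme of myeloid cells, at 2058, 799 and 1629 CPM, against 465, 134 and 474 CPM in the other CD8 T cells. In NK cells the values were 1430, 3272 and 875 CPM against 320, 81.8 and 145 CPM. Among cells in exactly 1 gate the top NK cells held 856, 226 and 25.3 CPM against 131, 61.5 and 55.2 CPM, and the variance over the mean was 2.19, 1.74 and 2.41. The part of this RNA in the spread over lymphocytes was not tested.

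The interferons themselves were barely seen. Of 18 listed type I interferon genes, 4 had any UMI in a gated cell. Ifnb1 was found mainly in macrophages, with 39 UMIs in 17 cells at day 3, 6 UMIs in 3 cells at day 7 and 59 UMIs in 15 cells at day 14 (16 of them in 1 cell), or 10.9, 2.54 and 7.81 CPM. The day with the least Ifnb1 in macrophages was the day with the highest sum of the 38 genes there. Ifna2 had 10 UMIs, in 1 cell that passed the CD8 T and monocyte gates at day 3. In pDC 0 UMIs of the 18 genes were counted on the 3 days, over 39, 10 and 35 cells. Ifnar1 and Ifnar2, the receptor subunits, were found in each class, and were highest in pDC with 276, 408 and 329 CPM for Ifnar1 and 521, 315 and 469 CPM for Ifnar2.

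Of the genes that carry the signal from the receptor, Stat2 stood at 60.8, 65.0 and 27.9 CPM in monocytes and 36.1, 61.7 and 21.7 CPM in macrophages, and Jak1 at 214, 225 and 193 CPM and 180, 197 and 168 CPM. Of 11 genes that lead to interferon production, 3 of 10 measured were lower in monocytes and 2 of 10 in macrophages between days 7 and 14 by the same size rule, with 0 higher in each, where 4.8% and 6.7% of all genes were lower. Irf7, which is itself induced by type I interferon and drives its production, stood at 389, 380 and 220 CPM in monocytes, 196, 299 and 145 CPM in macrophages and 348, 223 and 84.0 CPM in cDC2. Its order of days in each of these 3 classes was that of the summed members.

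The interferon-gamma response list, 21 genes such as the guanylate binding proteins and Cxcl9, was read beside the members. Between days 3 and 7, 18 of its 20 measured genes were lower in monocytes and 0 higher (median log2 ratio -1.07), where 7.55% of all genes were lower and the members had 4 lower and a median of -0.06. In macrophages 15 of 19 were lower and 0 higher (median -0.99), against 14.2% of genes lower, while 9 of 37 members were higher and 0 lower (median 0.32). In NK cells the values of both lists were close, with 8 of 18 interferon-gamma genes lower and 1 higher (median -0.35). Of the members there 9 of 31 were lower and 0 higher (median -0.40), against 5.1% and 3.27% of all genes. In cDC2 both were lower too, with 12 of 18 interferon-gamma genes lower and 0 higher (median -0.74). Of the members there 9 of 35 were lower and 1 higher (median -0.39), against 3.25% and 4.26% of all genes. Cxcl9, a chemokine that draws T cells, stood at 2468, 465 and 336 CPM in monocytes, and Gbp2 at 3003, 992 and 808 CPM. Irf1, a regulator induced by interferon-gamma, stood at 391, 197 and 87.5 CPM in macrophages. Between days 7 and 14 both lists were lower in monocytes. Of the interferon-gamma list 13 of 19 were lower and 1 higher, against 4.8% and 5.13% of all genes. Its median was -0.80, equal at this rounding to that of the members. Ifng itself stood at 1161, 263 and 317 CPM in CD8 T cells and 380, 122 and 267 CPM in NK cells. The difference between the lists was not tested.

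**Figure D5:**
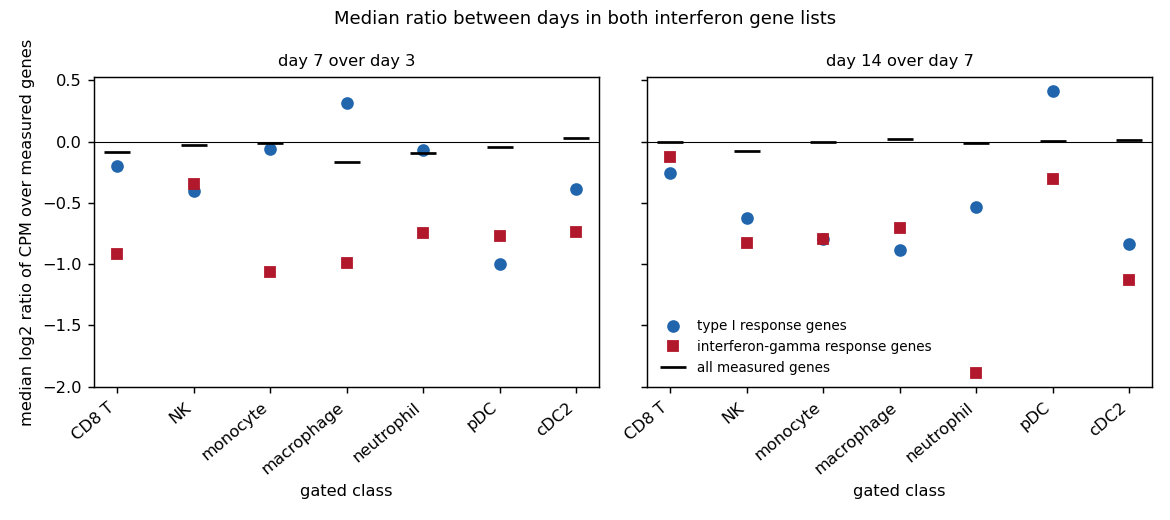
Median log2 ratio of CPM (y axis) over the measured genes of the type I list (circles), the interferon-gamma list (squares) and all genes (black bars) in each class (x axis), day 7 over day 3 on the left and day 14 over day 7 on the right. In macrophages on the left the circle lies at 0.32 and the square at -0.99; in monocytes on the right both lie at -0.80. The pDC values rest on 10 cells at day 7.

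Over the 21 sums of 7 classes and 3 days, the 8 genes outside the list whose log2(CPM + 1) was most like the mean of the members, among 9991 genes ranked, were Rnf213 (Pearson's r = 0.96), Rab32, Ltbr, Gpr141, Mefv, Trim30c, Il18 and Ifitm3 (0.94). The points share libraries and classes, so these values are a description. Within the list, Isg15 followed the mean of the other members with r = 0.95. The members least like the others were Ifi44 (-0.39), Bst2 (-0.23) and Sp100 (0.24), the first absent from neutrophils with 0 UMIs on each day and the second highest in pDC.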

How the data were processed

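The data are single-cell RNA counts of CD45+ tumour cells in 3 libraries, 1 per day after transfer. The values the authors deposited are whole-number counts of UMIs for every gene in every barcode. The submitters' processing notes name Cell Ranger 4.0.0 and mm10; which annotation release was used is not given in the sources used here. Per the labels' protocols cells of 3 mice were pooled for each library. The p-values thus rest on 3 pools, 1 per day. They measure the spread of class levels over these pools that is left after the library block. All 7 classes entered 1 fit and share its estimate of spread. The labels name both a sorter and magnetic beads for the enrichment of CD45+ cells.

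Barcodes with at least 1500 UMIs were kept and gated on raw UMIs: Cd8a + Cd8b1 of at least 2 with Cd3d + Cd3e of at least 1 (CD8 T), Ncr1 + Klrb1c of at least 2 with Cd3d + Cd3e of 0 (NK), Ly6c2 of at least 3 and Chil3 of at least 3 (monocyte), Arg1 of at least 5 (macrophage), S100a8 + S100a9 of at least 20 (neutrophil), Siglech of at least 2 (pDC) and Cd209a of at least 2 (cDC2). A cell in several gates counted in each, except in the class contrasts. No doublet caller was run. UMIs were summed per class and library and scaled to CPM. Ratios between days carry exact conditional binomial 95% intervals and levels exact Poisson ones, which cover counting error only; a count of 0 was set to 3. Class contrasts used edgeR 4.0.16 in R 4.3.3 (quasi-likelihood, TMM, library as block, adjusted p below 0.05), and DESeq2 1.42.0 as an alternative. The edgeR step was also run on simulated sums of 9349 genes. These were drawn from 1 mean profile over all classes, with a fixed spread and no library effect. Changes were placed between monocytes and macrophages, and 94% of 3-fold and 6% of 1.5-fold changes were recovered with 1 false call. This setting differs from the data, so these values are not the power or false calls of the contrasts reported. The block is the shared library: deviations of class sums of 1 library correlated from -0.04 to 0.33 over 63 pairs (median 0.06, 18 over 0.1). Per-cell values used numpy 2.4.6, scipy 1.17.1 and pandas 2.3.3 in Python 3.11.15, with cells thinned to 1500 UMIs.

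The members, gates, role and pathway lists and marker lists were chosen with earlier results of these data known. Any member could be named with its values, with first place to those with the ratio bounds farthest from 0 and those with the most UMIs; outside the list, pathway genes and the 8 genes of closest profile (at least 200 UMIs, gate genes left out) could be named. The comparison of lymphocyte levels with monocyte levels was added after the data were seen. Marker lists of B cells, melanoma cells and erythroid cells summed to at most 41.2, 20.3 and, outside macrophages at day 3, 3.31 CPM. The signalling genes are not reported here as a group. Alternatives changed the UMI minimum, mitochondrial filter, gates, shared barcodes, scaling, weights, single members or cells, the size rule, thinning, the test, and each library left out.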

Additional observations from a re-analysis of the deposited data

Results flagged for a closer look

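Some members went opposite ways in different classes over the same pair of days, each past the size rule of at least 1.5-fold with an interval excluding 1. The difference between classes was not tested, since each class has 1 library per day. Between days 3 and 7 the summed list had a log2 ratio of 0.33 in macrophages, while 5 other classes were lower as counted, as was pDC (-0.19, on 10 cells at day 7). Without shared barcodes the macrophage ratio was 0.0929, and the ratios turned positive in CD8 T cells under 4 alternatives and in neutrophils under 2. In that step Ifit3 was at 1.40 in macrophages and 0.93 in neutrophils, and at -1.71 in NK cells. Oasl1 was at 0.87 in macrophages and 1.36 in neutrophils, and at -0.67 in CD8 T and -1.03 in NK cells. Ifit2 was at 0.72 in macrophages, and at -0.61 in monocytes, -2.35 in neutrophils and -1.10 in cDC2. Ifi213 was at 0.94 in macrophages and -0.79 in NK cells, and Rsad2 at 1.08 in cDC2 and -1.89 in CD8 T cells.

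Between days 7 and 14, 3 members were higher in CD8 T cells and lower in other classes. Ifi204 had a log2 ratio of 1.28 in CD8 T cells, and -0.73 in monocytes, -0.78 in macrophages, -0.99 in neutrophils and -1.65 in cDC2. Rsad2 was at 0.86 in CD8 T cells, at -1.93 in NK cells (0 UMIs at day 14, set to 3), and at -0.997 in monocytes, -0.89 in macrophages, -0.69 in neutrophils and -1.74 in cDC2. Slfn5 was at 0.79 in CD8 T cells, and at -2.66 in NK cells (2 UMIs at day 14), -1.16 in monocytes, -1.29 in macrophages and -1.34 in cDC2. In CD8 T cells the levels of these 3 genes ran over the days in the order of the monocyte markers there, and with cells in exactly 1 gate Slfn5 and Rsad2 no longer passed the size rule.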

How the results depend on the processing

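Of the log2 ratios of sums recomputed for consecutive days, 7 changed direction. In CD8 T cells between days 3 and 7 (-0.06), these were 0.0691 with exactly 1 gate, 0.00610 without shared barcodes, 0.0293 outside mitochondrial, ribosomal and gate genes and 0.0265 with TMM; the value was -0.17 without Sp100 and -0.0224 with cells weighed alike. In neutrophils at that step they were 0.24 with at least 3000 UMIs and 0.0583 with TMM, against -0.31 without shared barcodes and -0.30 with cells weighed alike. With exactly 1 gate the ratios of days 3 to 7 were -0.21 in monocytes, 0.27 in macrophages and -0.55 in cDC2, and of days 7 to 14 -0.44 in CD8 T cells, -0.71 in monocytes, -0.93 in neutrophils and -0.80 in cDC2. Without shared barcodes they were -0.19 in monocytes and 0.0929 in macrophages, then -0.46 in CD8 T cells and -0.87 in macrophages. With cells weighed alike they were -0.15 in NK cells and -0.23 in monocytes, then -0.25 in CD8 T cells, -0.30 in NK cells, -0.69 in monocytes and -0.96 in macrophages. TMM gave 0.47 in macrophages, then -0.81 in monocytes and -0.53 in neutrophils. Outside mitochondrial, ribosomal and gate genes days 7 to 14 gave -0.74 in monocytes and -0.87 in macrophages, and at least 3000 UMIs gave -0.91 in neutrophils. Without the top cell that step was -0.36 in CD8 T and -0.60 in NK cells, and without Sp100 -0.26 in CD8 T cells. Without Bst2 pDC gave -0.55, then 0.48, and without the top cell days 7 to 14 gave -0.0477 in pDC against 0.0656 as counted, whose interval includes 0.

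By a fold of at least 2, days 3 to 7 left 1 member higher and 4 lower in CD8 T cells, 4 lower in NK cells, 1 lower in monocytes, 1 higher in macrophages, 1 higher in neutrophils and 2 lower in cDC2; days 7 to 14 left 1 higher and 4 lower in CD8 T cells, 8 lower in monocytes, 14 in macrophages, 4 in neutrophils and 14 in cDC2. With at least 100 UMIs, 4 were lower in NK cells at each step, 0 were higher in monocytes and neutrophils and 1 lower in neutrophils at the first, 6 lower in neutrophils at the second, and 0 lower in pDC. The shares of all genes at a fold of 2 or at 100 UMIs are not given, so those counts have no background beside them. With exactly 1 gate the first step had 5 of 35 lower in CD8 T cells, against 10.2% of all genes. It had 7 of 38 lower in monocytes, against 5.98%. In cDC2 it had 15 of 34 lower and 0 higher, against 3.58% and 3.88%. The second had 1 of 34 higher in CD8 T cells, against 4.77%. In NK cells it had 1 of 27 higher and 7 lower, against 3.22% and 5.23%. Days 3 to 14 in pDC had 2 of 16 lower, against 4.31%. Without shared barcodes the first step had 5 of 35 lower in CD8 T cells, against 12.3% of all genes. It had 5 of 36 higher in macrophages, against 5.08%, and 2 of 34 higher in cDC2, against 3.51%. The second had 1 of 36 higher and 13 lower in CD8 T cells, against 7.20% and 4.88%.

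Thinned to 3000 UMIs, the share of cells with a UMI of the list was 90.7% in CD8 T, 93.0% in NK, 94.7% in macrophages and 97.9% in cDC2, and the variance over the mean 5.73 in CD8 T, 3.89 in NK, 13.7 in monocytes, 20.9 in macrophages, 31.0 in neutrophils, 3.13 in pDC and 8.79 in cDC2. The neutrophil value rests on 25, 28 and 37 cells at days 3, 7 and 14. Without the top member the share was 67.4% in CD8 T, 68.8% in NK and 77.3% in pDC, and the variance over the mean 11.7 in neutrophils and 2.74 in pDC.

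Monocytes against macrophages gave 12 members higher by DESeq2, 6 without the replicate block, 9 with cells in every gate and 8 to 17 with 1 library left out; 0 were lower by DESeq2, without TMM, without the replicate block and with every gate, and 0 to 1 with 1 library left out. Neutrophils against monocytes gave 7 higher without the block and 4 with at least 3000 UMIs, where 14 of 24 calls remained and Trim30a changed sign. CD8 T against NK cells gave 10 higher without a filter, 0 without the block, 5 without shared barcodes, 1 with at least 3000 UMIs and 1 to 4 with 1 library left out; 4 were lower by DESeq2, 3 without the block, 4 without shared barcodes and 4 to 6 with 1 library left out. pDC against cDC2 gave 1 to 2 higher with 1 library left out. Monocytes against CD8 T cells kept 36 or 37 members higher and 0 lower under each alternative run. The cause of these shifts was not tested. The shares of all genes under these alternatives of the class contrasts are not given, so the counts have no background beside them.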
